A study of Mus musculus with 10 samples.

Results

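Long RNA of the mouse heart was compared between embryonic day 14.5 (E14.5) and embryonic day 10.5 (E10.5). Levels are given as FPKM (fragments per kilobase of transcript per 1000000 mapped fragments). The comparison covers every locus of the deposited table with at least 1 FPKM in either library, leaving out loci above 1000000 FPKM. This kept 13327 of 35299 loci, and 1 locus was left out by the upper limit. The lowest larger value that entered was 1.00112 FPKM and the highest that did not was 0.999992. The samples were heart tissue of C57BL/6 mice, flash-frozen and extracted with Trizol, and the labels give no genetic change and no treatment beyond the stage. The series also holds E17.5, newborn and adult hearts, with 1 long RNA library per stage. The cell type label reads cardiomyocyte while the source label reads heart tissue, and neither says how many hearts went into a library or the sex of the animals. With 1 library per stage no replicate spread could be set against any difference and no p-value is given. "Higher" and "lower" below describe these libraries.

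At E10.5 the mouse heart is a looped tube in which chambers, trabeculae and endocardial cushions are forming, and the blood it holds carries red cells made in the yolk sac. By E14.5 the chambers and the outflow vessels are divided, the compact wall has thickened, coronary vessels are forming, and red cells made in the fetal liver enter the circulation. In whole hearts fewer cells of a type and less RNA per cell cannot be told apart. The table labels loci by assembly numbers, UCSC transcript identifiers and mm9 positions. None of these identifiers was found in the name tables used here (0 of 35299 loci), so loci are described by position and no gene symbol or function is given. For the same reason marker genes of cardiomyocytes or of other cell types were not checked.

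Most loci had similar levels at both stages, and past the 2-fold limit more loci were higher at E14.5 than lower. Of the 13327 loci, 660 were at least 2-fold higher at E14.5 on the log2(FPKM + 1) scale (4.95%), 259 were at least 2-fold lower (1.94%), and 12408 differed by less (93.1%). The log2 differences, E14.5 minus E10.5, had a lower quartile of -0.26, a median of -0.04 and an upper quartile of 0.23. Thus 7271 loci were lower by some amount and 6056 higher, while past the 2-fold limit the order was the opposite. Levels of log2(FPKM + 1) in the 2 libraries had a Pearson correlation of 0.948 across loci, which are not independent replicates. At a 4-fold limit 126 loci were higher and 54 lower, and at a difference of at least 4 log2 units 15 were higher and 12 lower. At 5 log2 units or more 5 were higher and 7 lower. The 7 include the loci at chr15:58679221-58679379 and chr5:32387168-32387323, of 159 and 156 bases and listed at 0 FPKM at E14.5. Without these the lower loci would not outnumber the higher ones there. Among the loci of up to 300 bases the largest difference on the higher side was 4.17. The call nearest to the limit had a log2 difference of 1.0009 and the nearest locus under it 0.9986. The count depends on the pseudocount, which damps low values: 1054 loci were higher and 525 lower with 0.1 FPKM added, and 190 and 89 with 5 FPKM added.

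**Figure D1:**
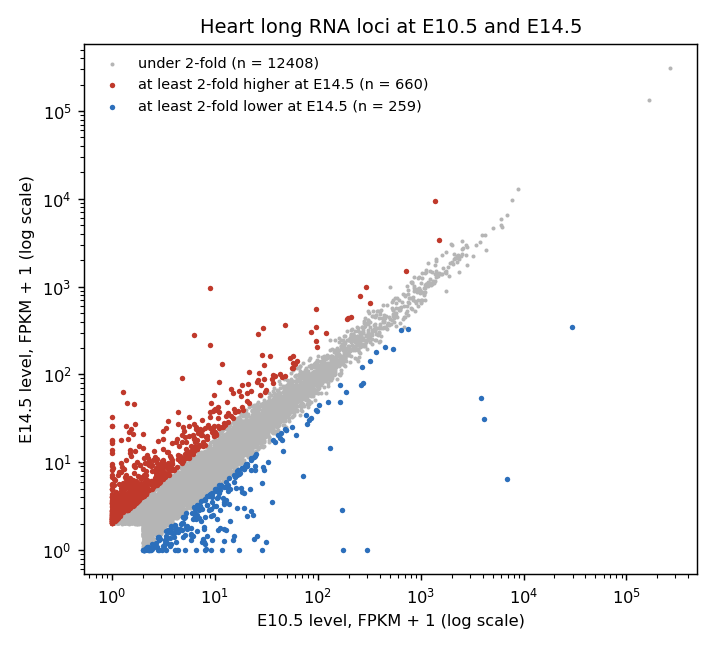
Each point is 1 locus, with its E10.5 level on the horizontal axis and its E14.5 level on the vertical axis, both as FPKM + 1 on log scales. Most of the 13327 loci follow the diagonal, 660 (red) lie at least 2-fold above it, 259 (blue) at least 2-fold below it, and 4 loci between 3822 and 29718 FPKM at E10.5 drop far below it.

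The share of loci that differed was above those of the next 2 intervals of the series and below that of the last. From E10.5 to E14.5 the loci at least 2-fold different made up 6.9%, against 3.26% of 13311 loci from E14.5 to E17.5, 5.51% of 13509 from E17.5 to the newborn and 21.6% of 14081 from the newborn to the adult. In the later 3 intervals the directions were closer to balance, with 228 loci higher (1.71%) and 206 lower (1.55%) at E17.5. In newborn hearts 377 were higher (2.79%) and 367 lower (2.72%), and in adult hearts 1656 (11.8%) and 1387 (9.85%). Neighbouring intervals share a library, and these counts stand side by side without a test.

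In summed FPKM the order was the opposite, since a few very abundant loci were lower at E14.5. Shares are given here of the FPKM sum without the locus left out above 1000000 FPKM. The 259 lower loci together held 5.19% of this sum at E10.5 and 0.330% at E14.5. The 660 higher loci held 0.796% at E10.5 and 3.13% at E14.5. Just 4 of the lower loci accounted for most of the first share, at a summed 44594 FPKM at E10.5 and 436 FPKM at E14.5. The other 255 lower loci summed to 8441 and 2850 FPKM. These 4 loci lie on chromosomes 7, 11 and 17, with a pair on chromosome 7.

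The locus with the largest difference of all was XLOC_029502, with the transcript identifiers uc009iur.1 and uc009ius.1, at chr7:110990151-110991676 (mm9). It had 6900 FPKM at E10.5 and 5.40 at E14.5, then 1.12, 0.846 and 1.67 FPKM in the E17.5, newborn and adult libraries. The E10.5 level was 1279-fold the E14.5 level and stood above those of the other libraries, which were all under 6 FPKM. The log2 difference was -10.08.

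Both neighbours of this locus within 30000 bases also differed between the stages, in opposite directions. The locus at chr7:111000267-111001721 had 29718 FPKM at E10.5 and 348 at E14.5, with 10.7 FPKM at E17.5 followed by 5.37 in newborn hearts and 5.97 in adult hearts. Its E10.5 level was 85.3-fold the E14.5 level, and at E10.5 it was the third most abundant locus of those compared. The locus on the other side, at chr7:110961035-110976756, had 1369 FPKM at E10.5 and 9521 at E14.5, while the E17.5, newborn and adult values were 10157, 1516 and 4934 FPKM. It was 6.96-fold higher at E14.5 (log2 difference 2.80) and was the most abundant of the 660 higher loci there. This stretch thus held both the most abundant higher locus at E14.5 and the 2 most abundant lower loci at E10.5. The 3 intervals do not overlap. This stretch and the one on chromosome 11 were singled out after their values had been seen.

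A similar stretch lay on chromosome 11. The locus at chr11:32176601-32178113 had 4153 FPKM at E10.5 and 30.4 at E14.5, then 3.50, 1.17 and 0.963 FPKM in the E17.5, newborn and adult libraries. Its E10.5 level was 137-fold the E14.5 level. Its neighbour at chr11:32183671-32197310 stayed abundant, at 6017 FPKM at E10.5 and 5002 at E14.5, with 5260 FPKM at E17.5 followed by 877 in newborn hearts and 3093 in adult hearts. The log2 difference of this neighbour was -0.27, under the 2-fold limit. The first locus on chromosome 7 and this one were both lower in the newborn library than in the E17.5 and adult libraries. A further locus deposited with the same interval as the neighbour had 9.62 FPKM at E10.5 and 0.689 at E14.5, and the authors' quantification may have split reads between the 2. The fourth of the abundant lower loci, at chr17:12875271-13074521, had 3822 FPKM at E10.5 and 52.2 at E14.5, while the E17.5, newborn and adult values were 43.1, 1764 and 9.42 FPKM. It was high again in the newborn. This interval overlaps those of 4 other loci, of which the most abundant had 426 FPKM at E10.5 and 335 at E14.5. A split of reads between them may enter its values.

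**Figure D2:**
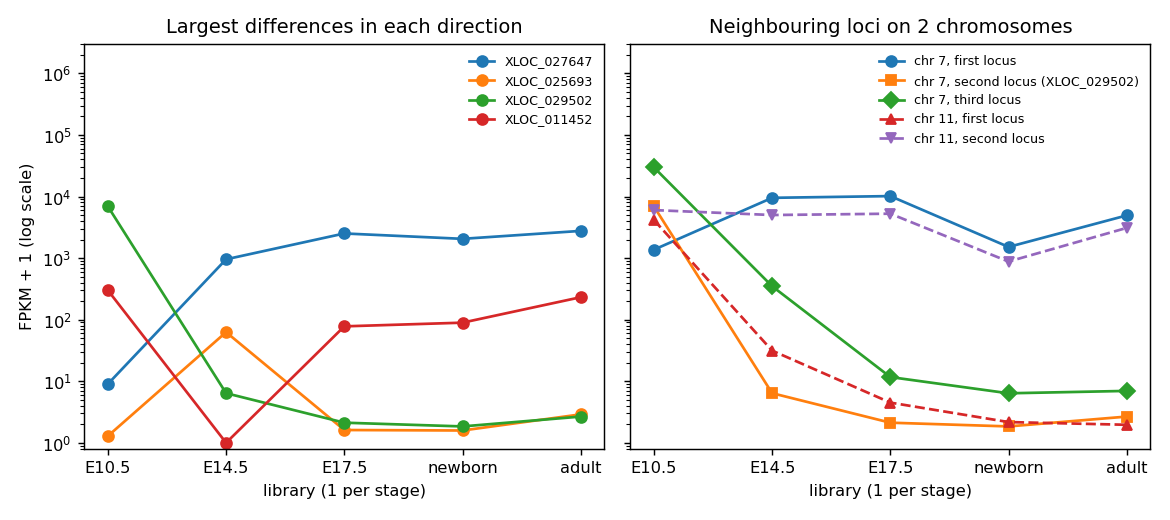
Levels of single loci in the 5 libraries, as FPKM + 1 on a log scale. The left panel shows the 2 loci with the largest difference in each direction, and the right panel the neighbouring loci on chromosomes 7 (solid) and 11 (dashed): 3 loci drop from 4153 FPKM or more at E10.5 to 348 or less at E14.5, while a neighbour on each chromosome is at 5002 FPKM or more at E14.5.

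The second locus on the lower side, XLOC_011452 at chr15:58679221-58679379, carries no transcript identifier and is 159 bases long. It had 299 FPKM at E10.5 and 0 at E14.5, then 76.9, 88.4 and 231 FPKM in the E17.5, newborn and adult libraries. Its E14.5 value alone stood apart from the other libraries. For so short a locus a few fragments give a large FPKM, and a value listed at 0 gives no fold.

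On the higher side the largest difference belonged to XLOC_027647 (uc009flu.1) at chr7:19996102-20009725. It had 8.03 FPKM at E10.5 and 955 at E14.5, with 2511 FPKM at E17.5 followed by 2053 in newborn hearts and 2763 in adult hearts, so that the E10.5 library was the low one and the level stayed high afterwards. The log2 difference was 6.73. Its interval overlaps that of 1 other locus, which had 0.0911 FPKM at E10.5 and 1.39 at E14.5. The second, XLOC_025693, carries many transcript identifiers and has a deposited interval of 492471 bases at chr6:41005881-41498351. This interval overlaps those of 22 other loci, none of them above 1.68 FPKM at E14.5 or above 0 at E10.5. XLOC_025693 had 0.290 FPKM at E10.5 and 61.7 at E14.5, while the E17.5, newborn and adult values were 0.614, 0.585 and 1.90 FPKM. This locus was high in the E14.5 library alone, and its log2 difference of 5.60 describes that library. For both loci reads may have been split among the overlapping loci, and neither enters a comparison limited to loci with an interval of their own.

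Among the higher loci with the most RNA at E14.5, 3 others followed the chromosome 7 locus. The locus at chr1:137715174-137755463 had 1503 FPKM at E10.5 and 3399 at E14.5, then 5426, 6214 and 10149.5 FPKM in the E17.5, newborn and adult libraries, higher at each later stage. The locus at chr7:4456264-4484044 had the same order, at 721, 1486, 2382, 3244 and 7221 FPKM. The locus at chr1:45368193-45408061 had 293 FPKM at E10.5 and 995 at E14.5, with 1131 FPKM at E17.5 followed by 983 in newborn hearts and 425 in adult hearts, so its adult level was nearer to that of E10.5.

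Loci listed near 0 at one stage were more often gained than lost. At E14.5, 115 loci had at least 1 FPKM and had been under 0.1 FPKM at E10.5 (0.863% of the loci compared), and 40 loci went the other way (0.3%). Most were low: the median of the 115 was 1.67 FPKM at E14.5, and 16 of them reached 5 FPKM. The highest had 31.5 FPKM. The gained loci had medians of 0.278, 0.234 and 0.351 FPKM in the E17.5, newborn and adult libraries. Of the 115, 17 had at least 1 FPKM in all 3 later libraries and 61 were below 1 FPKM in all 3. Of the 40 lost loci, 26 were below 1 FPKM in all 3 later libraries. Such loci enter the comparison only through the library in which they are high.

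Some loci were high in 1 library of the series. With at least 5 FPKM in a library and at least 10 times the level of each of the other 4, 22 loci were found for E10.5, 15 for E14.5, 9 for E17.5, 2 for newborn and 97 for adult hearts. They were picked from the 35299 loci of the table, without the locus above 1000000 FPKM, so each count is a small share of all loci. The 22 loci of E10.5 included the lower ones on chromosomes 7 and 11 described above, and their median was 12.7 FPKM. One of the others, at chr4:114761327-114766498, had 30.4 FPKM at E10.5 and 0.234 at E14.5, while the E17.5, newborn and adult values were 0.490, 0.164 and 0.234 FPKM. All 15 loci of E14.5 carry transcript identifiers, as do 12764 of the 13327 loci compared. Of the 15, 5 lie on chromosome 13, which holds 543 of the 13327. A pair of these lies close together, at chr13:19253906-19308893 and chr13:19396520-19429006. The first had 16.7 FPKM at E14.5 and at most 0.183 elsewhere, and the second had 12.7 FPKM at E14.5 and at most 0.622 elsewhere. Another pair of neighbours lies on chromosome 9. The locus at chr9:44777770-44788507 had 24.7 FPKM at E14.5 and at most 0.619 in the other libraries, and the locus at chr9:44789963-44794504 had 7.95 and at most 0.565. The low levels in the other libraries follow from the way these loci were picked. Of these 4 loci the first on chromosome 13 overlaps 2 others, both under 1 FPKM at E10.5 and E14.5.

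Some of the called loci were neighbours. Pairs were formed after loci that overlap another had been left out, so such a locus may lie between the members of a pair. Among 4798 pairs of neighbouring compared loci that overlap no other locus and lie within 100000 bases of each other, 433 held at least 1 higher locus. In 39 of these (9.01%) both were higher. For lower loci this was 8 of 213 pairs (3.76%). Counted by place, where a locus in more than 1 pair counts in each, 472 of the 9596 places were held by a higher locus (4.92%). Of these places 78 (16.5%) had a higher neighbour. A lower locus held 221 places (2.30%), of which 16 (7.24%) had a lower neighbour. A higher locus next to a lower one occurred in 6 pairs. In windows of 1000000 bases, 27 of 2034 windows held at least 3 higher loci and no lower one, and 4 held at least 3 lower loci and no higher one.

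The window with the most higher loci was at chr17:34000001-35000000, where 10 of 38 compared loci were higher and none lower. Of these 10, 4 overlap another locus of the table. The medians of these 10 were 0.218 FPKM at E10.5 and 6.47 at E14.5, then 1.86, 2.21 and 17.6 FPKM in the E17.5, newborn and adult libraries, so the E17.5 and newborn medians were below that of E14.5. At chr15:74000001-75000000, 6 of 8 compared loci were higher, with medians of 0.107 FPKM at E10.5 and 3.11 at E14.5, with 11.8 FPKM at E17.5 followed by 1.12 in newborn hearts and 3.25 in adult hearts. At chr3:90000001-91000000, 5 of 19 were higher, and their medians were 3.16, 17.5, 31.6, 37.9 and 5.20 FPKM in the same order of stages. At chr16:36000001-37000000, 5 of 14 were higher, with medians of 0.310, 4.43, 7.92, 12.3 and 0.790 FPKM. The next windows tied at 4 higher loci each. In 3 of these 4 windows the median peaked before the adult, and in the window on chromosome 17 it was highest in the adult.

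The 4 windows of lower loci were on chromosomes 4, 9 and Y. At chr4:118000001-119000000, 3 of 17 compared loci were lower, with log2 differences between -2.61 and -1.76, and their medians were 9.41 FPKM at E10.5 and 1.28 at E14.5, while the E17.5, newborn and adult values were 1.18, 0.445 and 0 FPKM. At chr9:21000001-22000000, 3 of 31 were lower, with medians of 19.4, 1.47, 1.26, 1.13 and 0.549 FPKM. Both groups were thus highest at E10.5 and lower in every other library. At chr4:62000001-63000000, 4 of 14 were lower, but their median of 6.53 FPKM at E10.5 and 0.149 at E14.5 was above its E10.5 level again at E17.5. The lower loci of this window include a locus of 204 bases without identifier, at chr4:62140712-62140915. That locus had 10.8 FPKM at E10.5, 0 at E14.5 and 30.5 at E17.5.

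All 4 compared loci of the Y chromosome were lower at E14.5, and 3 of them passed the 2-fold limit. The locus at chrY:347054-386694 had 28.6 FPKM at E10.5 and 7.91 at E14.5, then 27.8, 0.0690 and 0 FPKM in the E17.5, newborn and adult libraries. Across the 4 loci the E10.5 levels were between 10.0 and 28.6 FPKM, the E14.5 levels between 4.90 and 7.91, and the E17.5 levels between 7.93 and 27.8. None of the 4 was above 0.0840 FPKM in newborn or adult hearts. The share of male animals in each library is not given in the labels, and its part in other differences was not tested. On the X chromosome 21 of 438 loci were higher (4.79%) and 12 lower (2.74%), with a median log2 difference of -0.10.

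Among autosomes chromosome 15 had the highest share of higher loci, 42 of 510 (8.24%), against 13 of 470 (2.77%) on chromosome 12, the lowest. The share of lower loci was highest on chromosome 4, at 23 of 806 (2.85%), and lowest on chromosome 19, at 2 of 447 (0.447%). Higher loci outnumbered lower ones on each of the 19 autosomes. Chromosome medians of the log2 difference lay between -0.08 (chromosome 5) and 0.01 (chromosomes 15 and 19) on the autosomes.

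**Figure D3:**
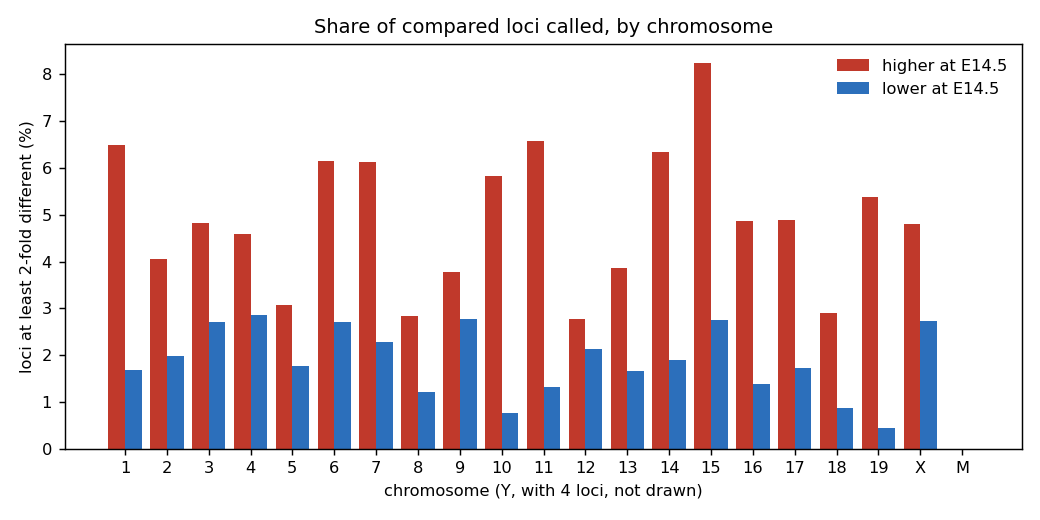
Percent of the compared loci of each chromosome that were at least 2-fold higher (red) or lower (blue) at E14.5. Chromosome 15 has the highest red bar among the autosomes, at 8.24%, and none of the 8 mitochondrial loci was called.

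The mitochondrial genome encodes subunits of the respiratory chain and the RNAs of the mitochondrial ribosome. None of its 8 compared loci passed the 2-fold limit. The most abundant, at chrM:5326-6938, had 2799 FPKM at E10.5 and 2808 at E14.5, with 4207 FPKM at E17.5 followed by 9436 in newborn hearts and 30097 in adult hearts. The log2 differences of all 8 between E14.5 and E10.5 lay between -0.55 and 0.17, and the median was -0.01. In contrast to the later stages, where each of these 8 levels was above its E14.5 level, the E10.5 and E14.5 libraries were alike within these bounds.

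The share of loci that differed went with their level. Of the 4566 loci with a mean of up to 5 FPKM over both libraries, 416 were higher (9.11%) and 126 lower (2.76%), and these made up 63.0% of all higher loci. Of the 5593 loci with a mean between 10 and 100 FPKM, 129 were higher (2.31%) and 66 lower (1.18%). Among the 690 loci above 100 FPKM, 24 were higher (3.48%) and 17 lower (2.46%). The shares thus fell from the low loci to those between 10 and 100 FPKM and were larger again above 100 FPKM. The median log2 difference was 0.04 up to 5 FPKM and -0.08 above 100 FPKM. Counting error is largest for low loci, and its part in these shares was not tested.

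Length and annotation also went with the calls. Of the 25 compared loci of up to 300 bases, 17 were called (68.0%), 5 higher and 12 lower. Of 6248 loci above 20000 and up to 100000 bases, 248 were higher (3.97%) and 84 lower (1.34%). The 563 loci without a transcript identifier had 38 higher (6.75%) and 25 lower (4.44%), against 622 (4.87%) and 234 (1.83%) of the 12764 with one. Loci whose interval overlaps another were called less often, 234 of 5404 higher (4.33%) and 67 lower (1.24%), than loci with an interval of their own, 426 of 7923 higher (5.38%) and 192 lower (2.42%).

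**Figure D4:**
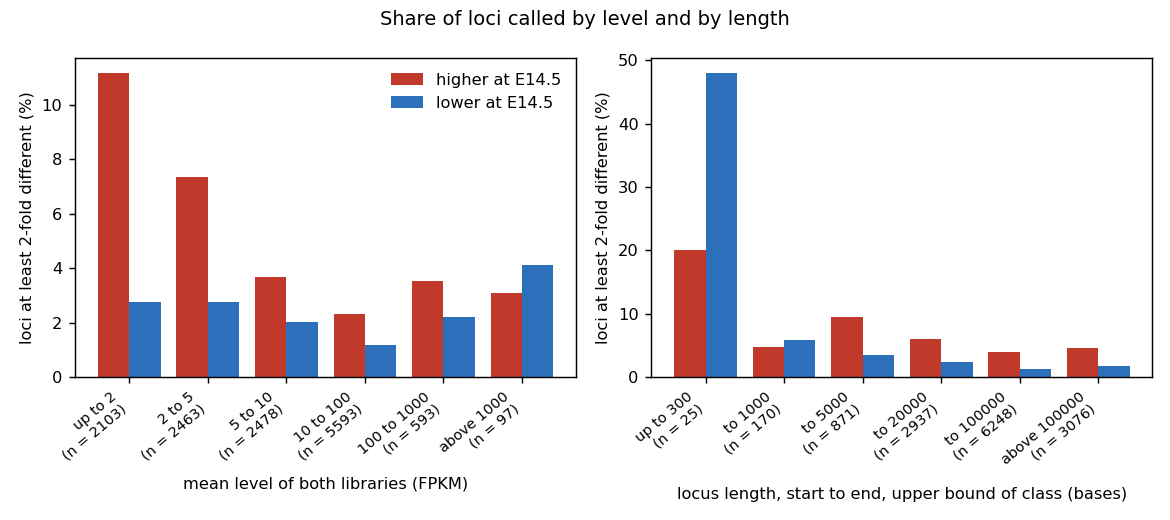
Percent of compared loci at least 2-fold higher (red) or lower (blue) at E14.5, by mean level in FPKM (left) and by locus length in bases (right), with the number of loci in each class. The share of higher loci is greatest up to 2 FPKM, at 11.2%, and the 25 loci of up to 300 bases have the highest shares by length, 20.0% higher and 48.0% lower.

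The later stages show where the called loci went. The 660 higher loci had a median of 0.888 FPKM at E10.5 and 5.02 at E14.5, and the E17.5, newborn and adult medians were 5.63, 4.88 and 6.06 FPKM. Their upper quartile was 14.3 FPKM at E14.5 and 24.8 in the adult, and their lower quartile 2.57 and 0.752. Each of them had to reach 1 FPKM at E14.5 to be higher there, which holds up the lower quartile at that stage. Over all compared loci the upper quartile went from 21.3 to 23.3 FPKM between the same libraries and the lower from 3.31 to 2.51. The 259 lower loci had a median of 8.38 FPKM at E10.5 and 1.85 at E14.5, and the E17.5, newborn and adult medians were 1.93, 1.39 and 0.554 FPKM. Each of them had to reach 1 FPKM at E10.5 to be lower at E14.5, and the drop between those libraries follows from the call. At least 1 FPKM was reached in the adult by 481 of the 660 higher loci (72.9%) and by 104 of the 259 lower loci (40.2%), against 86.4% of all compared loci. Loci under the 2-fold limit had medians between 8.93 and 9.74 FPKM in all 5 libraries.

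**Figure D5:**
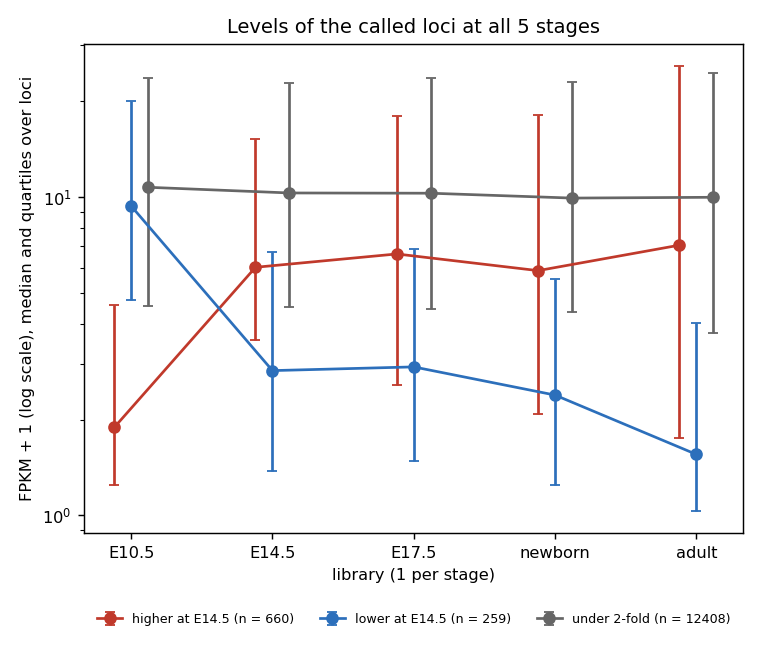
Median level (points) with the lower and upper quartile over loci (bars), as FPKM + 1 on a log scale, in the 5 libraries for the loci higher at E14.5 (red), lower at E14.5 (blue) and under the 2-fold limit (grey). The bars show the spread between loci and not between animals, and the blue median drops from 8.38 FPKM at E10.5 to 0.554 in the adult. The rise of the red and the drop of the blue median between E10.5 and E14.5 follow from the way these loci were picked.

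Differences between later libraries that use neither E10.5 nor E14.5 were taken for the same loci. From the newborn to the adult, 11.8% of 14081 loci were higher and 9.85% lower. Of the 540 loci that had been higher at E14.5 and were compared there, 176 were higher in the adult (32.6%) and 94 lower (17.4%). As shares of the adult lists these are 10.6% of 1656 and 6.78% of 1387. Of the 259 loci that had been lower at E14.5, 156 were compared there. Of these, 21 were higher in the adult (13.5%) and 57 lower (36.5%), which are 1.27% and 4.11% of the adult lists. The higher group thus had more calls in each direction than all loci. The lower group had more lower calls, while its share of higher calls (13.5%) was near that of all 14081 loci (11.8%). Those 14081 include loci that were not compared between E10.5 and E14.5. Of the 11776 loci under the 2-fold limit that were compared there, 858 were higher in the adult (7.29%) and 1096 lower (9.31%). Against these, the lower group had more calls in each direction as well. In both groups the more frequent direction was the one they had taken from E10.5 to E14.5. Among loci with at least 10 FPKM at E10.5 or E14.5, the higher group had 53 of 199 higher in the adult (26.6%) and 41 lower (20.6%), the lower group 9 of 92 (9.78%) and 36 (39.1%), and the loci under the limit 366 of 6380 (5.74%) and 671 (10.5%).

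From E17.5 to the newborn both groups had more loci lower than higher, but for the higher group this was nearly even among the more abundant loci. All loci had 2.79% higher and 2.72% lower there. Of the 545 loci higher at E14.5 and compared there, 46 were higher in the newborn (8.44%) and 72 lower (13.2%). These are 12.2% of 377 and 19.6% of 367 on the newborn lists. Of the 180 loci lower at E14.5 and compared there, 16 were higher (8.89%) and 30 lower (16.7%), or 4.24% and 8.17% of the lists. Among loci with at least 10 FPKM at E10.5 or E14.5, the higher group had 22 of 201 higher in the newborn (10.9%) and 23 lower (11.4%), and the lower group 6 of 104 (5.77%) and 21 (20.2%). The loci under the limit also leaned lower there, with 51 of 6381 higher (0.799%) and 117 lower (1.83%).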

How the data were processed

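Each of 5 stages had 1 long RNA library, and the authors deposited 1 FPKM value for each locus and library. Positions refer to mm9, and the tools listed without role or version in the submitters' processing notes are Bowtie, HISAT, RSEM, HISAT2 and Bowtie2. Library preparation, strand, the treatment of reads that match several loci and the program behind the FPKM values are not given in the sources used here. Depth is unknown. Relative depth was estimated from loci under 0.05 FPKM, taking their values to step by whole fragments. For E14.5, 70.7% of 454 such loci lay within 0.05 log2 units of 2-fold steps. By this estimate the E14.5 library was 1.05 times as deep as the E10.5 library. The E17.5, newborn and adult libraries were 0.995, 0.997 and 0.776 times as deep. The part of the lower adult depth in the adult differences was not tested.

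Values were used as deposited. Differences are log2(FPKM + 1), E14.5 minus E10.5, which understates those of low loci. A difference of at least 1 (2-fold) was called by size alone. The calling step was tested on simulated data without noise, where the outcome follows from the rule. This checks the code and does not measure how reliable the calls are. Of 35299 loci, 8534 carry no transcript identifier and 10587 overlap another locus. Because no identifier was found in the name tables (GRCm38.p6 for the reference table), the gene lists written for this comparison were not used and no sequence is shown. By rule the text names the 2 locus identifiers per direction with the largest difference and at least 10 FPKM, and the windows with the most called loci. Other loci are given by position and were picked once their values were known. The members and lists were chosen with earlier results of these data known. Other pseudocounts, filters, scalings and window sizes were tried. Python 3.11.15 with pandas 2.3.3 and numpy 2.4.6 was used.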

Additional observations from a re-analysis of the deposited data

How the results depend on the processing

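The 660 higher and 259 lower loci became 1054 and 525 with a pseudocount of 0.1 FPKM, 190 and 89 with 5 FPKM, 211 and 112 with a filter of 10 FPKM, and 126 and 54 at a 4-fold limit, where stricter limits keep fewer loci by construction. Without loci that share all or part of their interval with another, 426 were higher and 192 lower. Under median-ratio scaling 659 and 256 loci were called, all among the main calls, and with the same FPKM sum 687 and 232. Higher loci were between 65.3% and 74.8% of all calls under these settings. The median of -0.04 became -0.0275 with a pseudocount of 5 FPKM, -0.0032 with no filter, -0.0773 with a filter of 10 FPKM, -0.0583 without shared intervals, -0.0076 with the same sum and -0.0078 with the same sum and no mitochondrial loci. For these medians the cause was not tested. Without loci of up to 300 bases, a setting added after seeing the data, 655 were higher and 247 lower. Of the 115 gained loci 73 were listed at exactly 0 at E10.5, and 16 gained and 9 lost loci remain at a limit of 5 FPKM. In windows of 500000 bases 1 window of lower loci was left. Counts by level, chromosome, length, identifier, interval, window and later step stayed within 1.5 times of their values under median-ratio scaling. The 4 named loci kept their direction and call in every setting in which they were compared. No paired analysis was possible because each stage has 1 library, and leaving out a library was not possible for the same reason. Depth per library is unknown, so no interval for counting error is given.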

Other observations

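The locus left out above 1000000 FPKM, at chr17:81772444-82138966, had 5711970 FPKM at E10.5 and 628 at E14.5, then 785, 719 and 290 FPKM in the E17.5, newborn and adult libraries. With it kept, 260 loci in place of 259 were lower at E14.5.

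Of the FPKM sum without that locus, a pair of short loci held a large share at all stages, 41.8% at E10.5 and 44.3% at E14.5, with 38.9% at E17.5 followed by 40.2% in newborn hearts and 28.2% in adult hearts. The first, at chr9:78023097-78023440, had 263162 FPKM at E10.5 and 308290 at E14.5. The second, at chr4:43505656-43505931, had 164298 and 133163 FPKM and was lower at each later stage, at 100349, 76837 and 72558 FPKM.

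Several of the shortest loci moved back and forth between libraries. The locus at chr5:32387168-32387323 had 175 FPKM at E10.5 and 0 at E14.5, while the E17.5, newborn and adult values were 135, 155 and 0 FPKM. The locus at chr16:90342375-90342565 had 8.87, 56.7, 14.1, 94.9 and 20.9 FPKM in the same order.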
